A study of Nannochloropsis oceanica with 18 samples.

Results

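The plastid genes cp-psbA, cp-psbB, cp-psbC, cp-psbD, cp-psaA and cp-psaB, written below without the prefix, encode the core proteins of the photosystems and were followed across 18 RNA libraries of the alga Nannochloropsis oceanica. They were chosen by name, as 6 of the 10493 genes in the deposited tables and 6 of the 125 genes with the plastid prefix cp-. The values described are counts, counts scaled to 1000000 library counts (CPM) and the share of all cp- counts.

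Cells of strain IMET1, a unicellular marine alga, were grown in flasks at 25 °C for 8 days from an optical density of 0.5, and polyadenylated RNA was sequenced. The 6 groups of 3 cultures, described as biological replicates, crossed 3 genotypes with 2 light levels. The genotypes were wild type (WT), a strain labelled as lacking NO07G02030, a nuclear gene (KO), and another labelled as overexpressing it (OE). The sources used here do not say how these strains were made or whether each is 1 clone. Normal light (NL) was about 50 and high light (HL) about 300 µmol photons per square metre and second. A cell type named Colonial is given for every library, and it was not checked against marker genes because nuclear genes carry IDs without names here.

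Photosystem II, which splits water, and photosystem I, which reduces ferredoxin, are the light-driven steps of oxygenic photosynthesis. The psbA and psbD products, called D1 and D2, form the reaction centre of photosystem II, and D1 is the subunit that light damages and that is replaced most often. The psbB and psbC products, called CP47 and CP43, are its inner chlorophyll antennae, and the psaA and psaB products form the reaction centre of photosystem I. All of them are encoded in the plastid of algae and plants.

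Library totals were 14614662 to 18156739 counts, and cp- counts took 30.2 to 260 CPM of them. Plastid transcripts were read from polyadenylated RNA, so fewer plastids, less plastid RNA per cell and less of it kept by the selection cannot be told apart. HL_KO replicate 2 and HL_WT replicate 1 stood apart from the other libraries of their groups. Their correlations of log2 CPM across genes were 0.903 to 0.939, against 0.930 to 0.996 for all replicate pairs without them. The value of 0.930 was that of NL_KO replicates 1 and 2, which were not set apart. Several results for the core genes that rest on the libraries set apart are also given without them. Tests of single cp- genes outside the core genes are given with all libraries. The transcript of NO07G02030 was called neither lower in KO nor higher in OE libraries. Against WT its log2 fold change was -0.37 (SE 0.22, edgeR adjusted p = 0.439) in KO and -0.20 (SE 0.22, edgeR adjusted p = 0.554) in OE at normal light. Under high light the values were 0.44 (SE 0.22, edgeR adjusted p = 0.272) in KO and 0.41 (SE 0.22, edgeR adjusted p = 0.155) in OE. The strains are therefore called KO-labelled and OE-labelled.

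Transcripts of psbA, for the D1 protein, exceeded those of the other 5 core genes in every library. In TPM, which is scaled for gene length, psbA stood at 86.3 ± 57.4 over the 18 libraries (mean ± SD). Whether the selection of polyadenylated RNA kept each of these transcripts alike was not tested, which limits the order of genes here and the ratios below. The D2 gene psbD stood at 6.11 ± 5.15 TPM and the CP43 gene psbC at 5.66 ± 4.28 TPM. The photosystem I genes psaA and psaB stood at 2.66 ± 1.91 and 2.65 ± 1.85 TPM, and the CP47 gene psbB was lowest at 2.00 ± 1.61 TPM. The order between psbC and psbD changed from library to library, with psbC higher in 9 of 18, and so did that between psaA and psaB, with psaA higher in 9 of 18. By contrast psbB was below psbC and below psbD in 18 of 18 libraries. In counts psbA ranked highest of all cp- genes in 18 of 18 libraries and in TPM in 17. The exception was HL_KO replicate 2, where ycf54, a plastid gene with 138 counts there, stood at 156 TPM and psbA at 62.1.

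The level of psbA within each group was uneven. In CPM, psbA stood at 36.2, 35.6 and 28.6 in NL_WT and at 32.5, 126 and 98.8 in NL_KO (replicates 1 to 3 here and in the values that follow). In NL_OE it stood at 23.5, 16.0 and 89.8 CPM. Replicates 2 and 3 of NL_KO and replicate 3 of NL_OE were thus high, and the other libraries at normal light lay between 16.0 and 36.2 CPM. At high light psbA stood at 65.8, 28.8 and 27.4 CPM in HL_WT, at 29.6, 34.1 and 39.6 in HL_KO and at 29.7, 20.1 and 52.3 in HL_OE. HL_WT replicate 1 and HL_OE replicate 3 were the high ones there, and the 3 groups overlapped. By mean TPM the order of the groups was NL_KO (164 ± 89.9), NL_OE (82.1 ± 77.3), HL_WT (77.2 ± 39.3), NL_WT (66.1 ± 8.79), HL_KO (64.3 ± 8.86) and HL_OE (64.0 ± 30.2; SD, n = 3), and every neighbouring pair in that order overlapped.

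The partner of D1 in the reaction centre gave another order. The CPM of psbD was 3.92, 3.59 and 2.33 in NL_WT, 2.67, 10.4 and 8.44 in NL_KO and 1.28, 0.614 and 2.64 in NL_OE. At high light it was 3.34, 1.67 and 1.35 in HL_WT, 2.03, 6.09 and 3.14 in HL_KO and 0.741, 0.636 and 1.88 in HL_OE. At each light level every OE-labelled library lay below every KO-labelled one. By mean TPM the KO-labelled groups led, with NL_KO at 14.0 ± 7.67 and HL_KO at 7.05 ± 3.78, and the OE-labelled groups were last, with NL_OE at 2.93 ± 2.00 and HL_OE at 2.07 ± 1.28 (SD, n = 3). The WT groups stood between, at 6.58 ± 1.74 in NL_WT and 4.09 ± 1.95 in HL_WT, and neighbours in the order overlapped.

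The inner antenna genes differed in depth, psbC being the better counted. The CPM of psbC was 7.22, 5.08 and 3.43 in NL_WT, 3.70, 12.5 and 11.6 in NL_KO and 2.22, 1.56 and 3.80 in NL_OE. At high light it was 5.14, 2.85 and 1.66 in HL_WT, 3.05, 3.35 and 3.87 in HL_KO and 1.20, 0.751 and 3.65 in HL_OE. Only in HL_KO did the 3 libraries of psbC lie close together. The CP47 gene psbB had the fewest counts, from 6 to 80 in a library. Its CPM was 2.99, 2.10 and 1.47 in NL_WT, 1.76, 3.28 and 5.45 in NL_KO and 1.69, 0.446 and 1.71 in NL_OE. At high light it was 1.73, 1.05 and 0.860 in HL_WT, 0.508, 0.479 and 0.801 in HL_KO and 0.342, 0.462 and 1.48 in HL_OE. For psbB HL_KO thus lay below every library of HL_WT and of NL_KO, with 8, 7 and 12 counts.

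The photosystem I genes moved through the libraries much as psbC did. In CPM, psaA stood at 6.53, 3.71 and 2.70 in NL_WT, 3.34, 8.57 and 8.24 in NL_KO and 1.81, 1.06 and 3.36 in NL_OE. At high light psaA stood at 4.30, 1.18 and 1.90 in HL_WT, 2.41, 1.37 and 4.94 in HL_KO and 1.14, 0.751 and 2.17 in HL_OE. The groups of psaA overlapped in all pairs compared. Its partner psaB ranged from 0.798 CPM in HL_OE to 9.31 CPM in NL_KO, with group means of 3.49 ± 1.73 in NL_WT, 6.72 ± 3.70 in NL_KO, 2.24 ± 0.830 in NL_OE, 2.87 ± 0.940 in HL_WT, 2.78 ± 0.949 in HL_KO and 1.39 ± 0.703 in HL_OE (SD, n = 3). By mean TPM both photosystem I genes were highest in NL_KO, next in NL_WT and lowest in HL_OE, and neighbours overlapped.

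**Figure D1:**
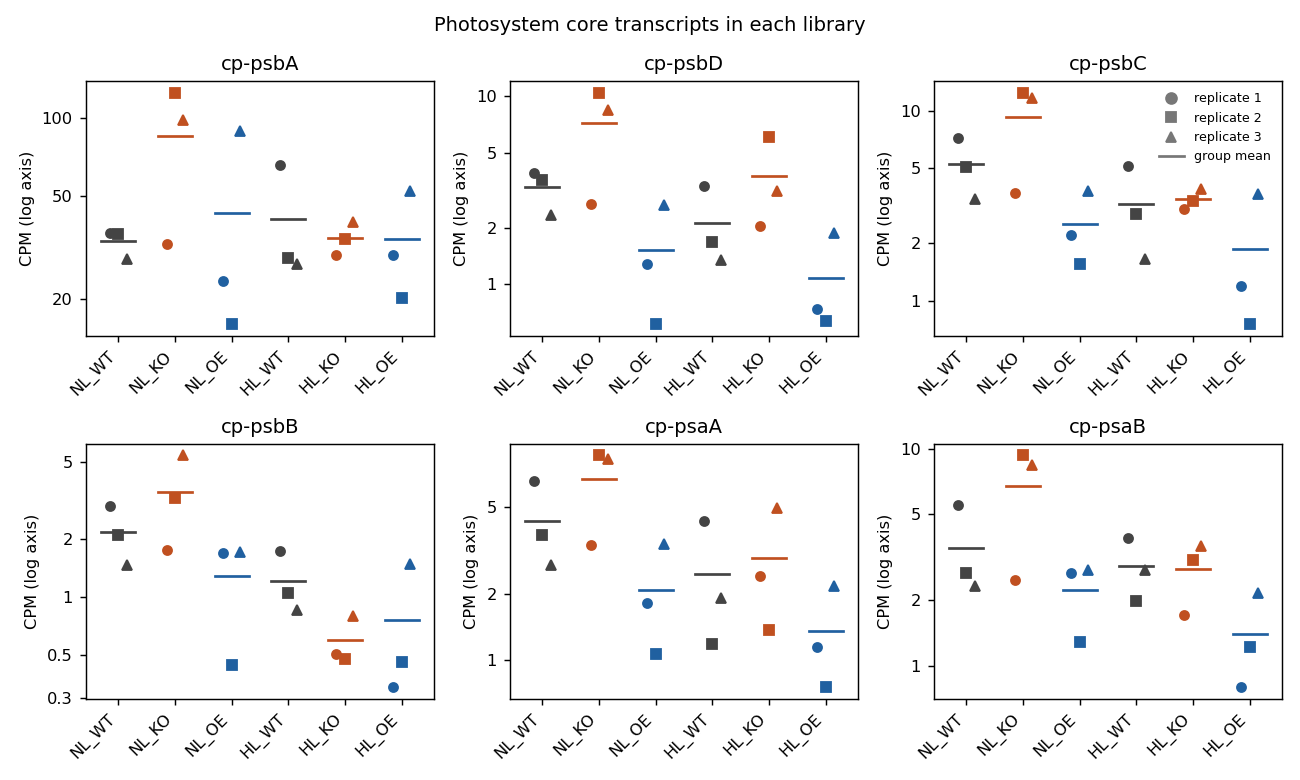
CPM (log axis) of each photosystem core gene in the 18 libraries, by group; points are libraries, marked by replicate number, and lines are group means. Replicates 2 and 3 of NL_KO are the highest of the 18 libraries for all 6 genes, and psbA in NL_OE spreads from 16.0 to 89.8 CPM.

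Together the 6 genes made up over 50% of the plastid counts in 15 of 18 libraries, and over 50% of the plastid TPM, which is scaled for length, in 5 of 18. The mean share was 56.0% of counts and 35.3% of TPM in HL_WT, and 46.1% and 28.7% in HL_KO. Their share of cp- counts was 49.6%, 63.2% and 56.2% in NL_WT, 59.9%, 70.0% and 54.2% in NL_KO and 65.2%, 61.5% and 84.3% in NL_OE. At high light it was 50.2%, 63.7% and 54.2% in HL_WT, 60.4%, 32.6% and 45.4% in HL_KO and 81.1%, 79.3% and 81.8% in HL_OE. The 3 HL_OE libraries lay above all 12 libraries of WT and the KO-labelled strain, and the lowest value was that of HL_KO replicate 2 (95% Wilson interval 30.7% to 34.6%). Group means at high light were 80.7 ± 1.26% in HL_OE, 56.0 ± 6.93% in HL_WT and 46.1 ± 13.9% in HL_KO (SD, n = 3), the last being 52.9% without replicate 2. In the same order, psbA alone took 68.3 ± 2.36%, 43.1 ± 5.07% and 33.5 ± 11.3% of cp- counts. The core genes other than psbA took 12.4 ± 2.26%, 12.9 ± 1.93% and 12.6 ± 2.68%. Of the cp- counts left without psbA, they took 39.0 ± 4.93%, 23.0 ± 5.55% and 19.8 ± 7.42% (SD, n = 3). The lowest share of the 6 genes in HL_OE, that of replicate 2, had an interval of 75.6% to 82.6%, and the highest in HL_WT one of 60.6% to 66.7%. Such intervals hold only the counting error within 1 library. The reads carry no molecular identifiers, so repeated copies of a molecule are counted as separate and the intervals may be too narrow. The shares were given no test because the genes were chosen with results of these data known.

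The sums behind the share were set out for the core genes and for the other cp- genes. The 6 genes summed to 36.0 to 84.2 CPM in HL_WT, 39.3 to 55.9 in HL_KO and 23.9 to 63.7 in HL_OE, and these ranges overlap. All other cp- genes summed to 21.4 to 83.7 CPM in HL_WT, 25.8 to 100 in HL_KO and 6.24 to 14.2 in HL_OE, so that for them HL_OE lay below both. The mean of the other cp- genes was 4.78-fold lower in HL_OE than in HL_WT (9.46 ± 4.203 against 45.2 ± 33.7 CPM), and that of the 6 core genes 1.30-fold lower (40.5 ± 20.7 against 52.5 ± 27.4 CPM; SD, n = 3). Both means of HL_WT were raised by replicate 1. Without it the other cp- genes were 2.74-fold lower in HL_OE (9.46 against 25.9 CPM). The sum of the core genes was then not lower there, at 40.5 CPM in HL_OE and 36.7 CPM in HL_WT. This kept HL_OE replicate 3, the highest of its group at 63.7 CPM. Without that library the mean of HL_OE was 28.9 CPM for the core genes and 7.08 CPM for the other cp- genes. The sum of the core genes was mostly psbA, at 76.2% to 78.2% in HL_WT and 82.2% to 87.6% in HL_OE. The core genes other than psbA summed to 18.4, 8.73 and 8.54 CPM in HL_WT. In HL_OE they summed to 4.22, 3.81 and 11.4 CPM. Their mean with all libraries was 1.84-fold lower in HL_OE (6.46 ± 4.24 against 11.9 ± 5.62 CPM; SD, n = 3), and the groups overlapped. At normal light the other cp- genes again stood lower in NL_OE, at 13.1 to 19.3 CPM, than in NL_WT, at 30.7 to 63.3, without overlap. The core genes overlapped there, at 20.9 to 104 CPM in NL_OE and 40.9 to 62.3 in NL_WT. Mitochondrial counts were also lower in the OE-labelled strain, at 10.3 to 22.7 CPM in its 6 libraries and 23.1 to 106 CPM in the other 12, and their part in these results was not tested.

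**Figure D2:**
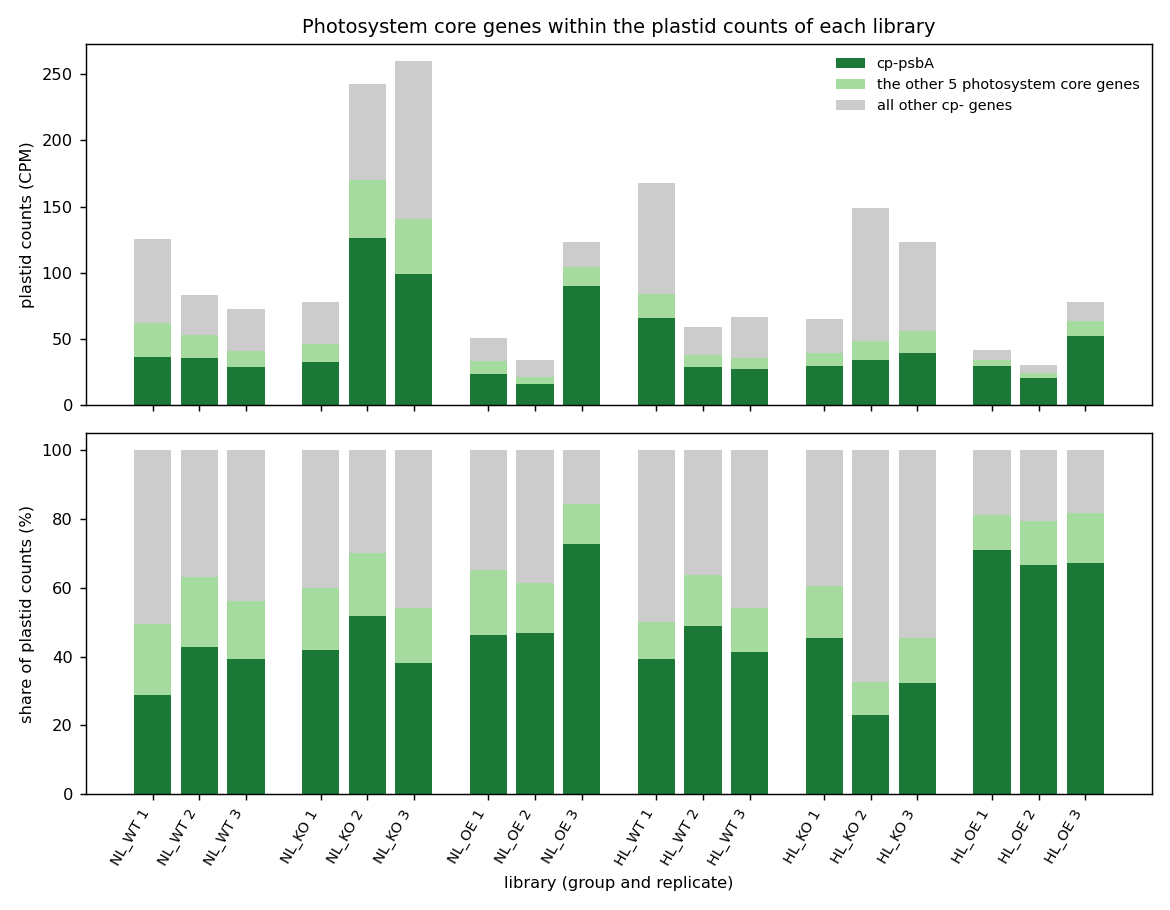
Plastid counts of each library split into psbA, the other 5 photosystem core genes and all other cp- genes, in CPM (upper panel) and as a percentage of cp- counts (lower panel). The 3 HL_OE libraries hold 79.3% to 81.8% of plastid counts in the core genes, and HL_KO replicate 2 holds 32.6%.

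**Figure D3:**
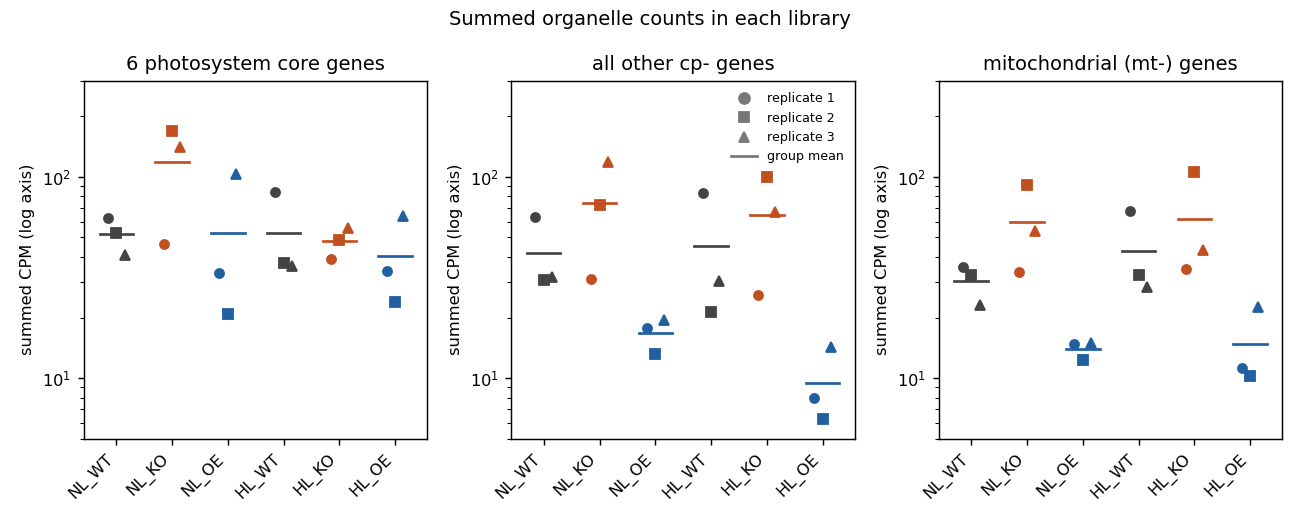
Summed CPM (log axis) of the 6 photosystem core genes, of all other cp- genes and of mitochondrial genes, by group; points are libraries and lines are group means. The OE-labelled groups stand apart in the middle and right panels and overlap with the others in the left one.

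The balance among the core genes also differed between groups, with psbA taking more of the counts at high light than at normal light in WT. Of the counts of the 6 genes, psbA held 58.0%, 67.5% and 70.0% in NL_WT and 78.2%, 76.7% and 76.2% in HL_WT, without overlap. It held 70.0%, 74.1% and 70.1% in NL_KO and 75.3%, 70.3% and 70.8% in HL_KO, which overlap. In NL_OE the share was 70.8%, 76.3% and 86.3%, and in HL_OE it was 87.6%, 84.1% and 82.2%, above all libraries of HL_WT and HL_KO but overlapping with NL_OE. The 95% Wilson interval of a library reached from 55.0% to 61.1% for NL_WT replicate 1 and from 84.7% to 90.0% for HL_OE replicate 1.

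Per length, the ratio of psbA to psbD, the genes for the paired proteins D1 and D2, differed between groups whose psbA levels overlapped. The levels of psbD also overlapped between the WT groups, and between the OE-labelled strain and WT at each light level. The ratio was 9.08, 9.77 and 12.1 in NL_WT, 12.0, 11.9 and 11.5 in NL_KO and 18.03, 25.7 and 33.5 in NL_OE. At high light it was 19.4, 17.0 and 19.97 in HL_WT, 14.4, 5.52 and 12.4 in HL_KO and 39.5, 31.2 and 27.4 in HL_OE. High-light WT thus lay above normal-light WT in every library, and the OE-labelled groups lay above WT and the KO-labelled strain at each light level. Between the KO-labelled groups there was no such step. Means were 10.3 ± 1.59 in NL_WT against 18.8 ± 1.60 in HL_WT, 11.8 ± 0.243 in NL_KO against 10.8 ± 4.65 in HL_KO, and 25.7 ± 7.74 in NL_OE against 32.7 ± 6.20 in HL_OE (SD, n = 3). Without replicate 2 the mean of HL_KO was 13.4. The counts of psbD behind these ratios were 11 to 156 in a library, and the 95% interval of HL_OE replicate 1, from 13 counts, reached from 23.0 to 68.1. The pair was picked after its values were seen, so no test is given. HL_KO replicate 2 had the lowest ratio and the highest psbD to psbC ratio, 2.64 against 0.561 to 1.23 in the other 17 libraries. The coding regions of psbD and psbC overlap in the RefSeq annotation of assembly ASM5162214v2, so reads from the overlap could be counted for either. Whether this affected the ratio in any library was not tested.

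The antenna pair varied in the same strain at high light. The ratio of psbB to psbC in TPM was 0.388, 0.389 and 0.402 in NL_WT, 0.317, 0.347 and 0.486 in HL_WT and 0.446, 0.247 and 0.439 in NL_KO. In HL_KO it was 0.157, 0.134 and 0.194, below all 15 other libraries, the lowest of which was that of NL_KO replicate 2. It rests on 7 to 12 counts of psbB in each HL_KO library. The ratio of the 2 photosystem I genes to psbB, psbC and psbD together was 0.215 to 0.632 over the libraries, and it overlapped between the groups compared, except that NL_OE, at 0.414 to 0.509, lay above NL_KO, at 0.347 to 0.376.

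**Figure D4:**
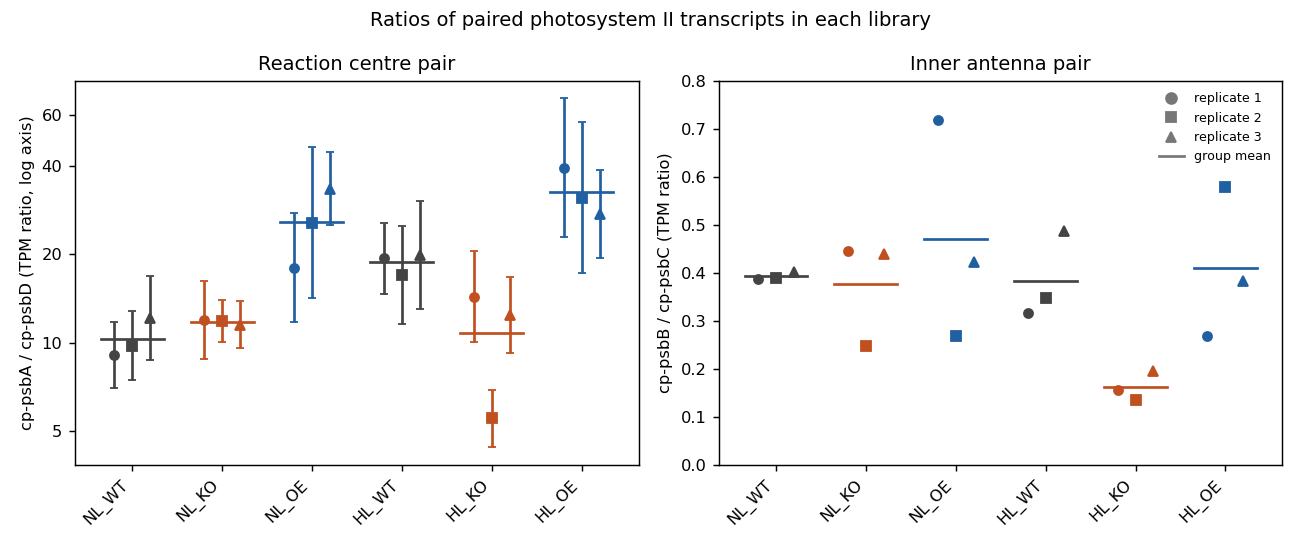
Ratio of psbA to psbD (left, log axis, with 95% Wilson intervals for counting error) and of psbB to psbC (right) in TPM in each library; points are libraries and lines are group means. The left ratio is 17.0 to 19.97 in HL_WT and 9.08 to 12.1 in NL_WT, and the right ratio is 0.134 to 0.194 in HL_KO.

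Gene by gene, the counts were tested by edgeR's quasi-likelihood F test over all 9912 genes that passed a filter on low counts, with Benjamini-Hochberg adjustment and a call at an adjusted p below 0.05. All 6 core genes and 30 other cp- genes passed that filter, and 89 cp- genes did not. Differences below are log2 fold changes from that fit, scaled by the trimmed mean of M values. The comparisons share groups of libraries with each other, so their values are not independent.

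The direct comparison of the OE-labelled with the KO-labelled strain at normal light gave the most calls. Fewer transcripts of 5 of the 6 core genes were counted in the OE-labelled strain, and psbA was the one not called. The D2 gene psbD fell to 1.51 ± 1.03 CPM from 7.19 ± 4.04 (log2 fold change -2.40 with an SE of 0.66, edgeR adjusted p = 0.0125) and psbC to 2.53 ± 1.15 from 9.27 ± 4.84 (-2.03 with an SE of 0.61, edgeR adjusted p = 0.0195). The photosystem I genes fell by like amounts, psaA to 2.08 ± 1.17 CPM from 6.72 ± 2.93 (-1.84 with an SE of 0.64, edgeR adjusted p = 0.0358) and psaB to 2.24 ± 0.830 from 6.72 ± 3.70 (-1.74 with an SE of 0.56, edgeR adjusted p = 0.0263). The smallest called difference was that of psbB, 1.28 ± 0.724 CPM against 3.50 ± 1.85 (-1.58 with an SE of 0.60, edgeR adjusted p = 0.0494). For psbA the means were 43.1 ± 40.6 and 85.8 ± 48.1 CPM (-1.16 with an SE of 0.61, edgeR adjusted p = 0.145; SD, n = 3 throughout).

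Of all genes tested 34.4% were called in this comparison and 17.4% were called lower. Of the 30 other cp- genes 15 were called lower and 0 higher. The median log2 fold change of the 30 was -2.83, against -1.79 for the 6 core genes and -0.02 for all genes. The means of the 15 called genes in NL_OE ran from 0 CPM (ycf54) to 2.62 CPM (dnaK), with chlN and rps7 at 0.037 CPM. Log2 fold changes from so few counts are uncertain, and the 89 cp- genes removed by the filter have none. The medians therefore do not show that the core genes differed less than the other cp- genes. Only psbB and psbD had groups that did not overlap, 2 of 6 core genes, where 56.0% of all tested genes had such groups. The 5 calls changed when single libraries were left out, which also leaves fewer replicates to make a call. Where calls were lost the difference could be smaller or larger than with all libraries. For psaB it was -1.36 without NL_KO replicate 2 and -1.89 without NL_OE replicate 1. Without NL_KO replicate 2 or without NL_OE replicate 2 edgeR called 0. Without NL_KO replicate 3 or NL_OE replicate 1 it called psbD alone, and without NL_KO replicate 1 it called all 6. Without NL_OE replicate 3 it called psbA, psbC, psbD and psaA. The values stayed negative in all these fits, psbD at -1.96 without NL_KO replicate 2 and -2.03 without NL_OE replicate 2, and psbC at -1.69 and -1.78. With limma on log2(TPM + 0.1) the calls were psbC and psbD.

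At high light the same comparison called psbD alone. Its level fell to 1.09 ± 0.692 CPM in HL_OE from 3.75 ± 2.10 in HL_KO (log2 fold change -1.94 with an SE of 0.68, edgeR adjusted p = 0.034; SD, n = 3), and this was the 1 core gene of 6 whose groups did not overlap, where 52.7% of all tested genes had such groups. The other 5 were not called, with log2 values from -1.22 (SE 0.66) for psaA to 0.22 (SE 0.69) for psbB, and psbA at -0.15 (SE 0.60). Of all genes 36.6% were called and 19.2% called lower, and of the 30 other cp- genes 19 were called lower and 0 higher. The means of these 19 genes in HL_OE ran from 0 CPM (groEL) to 1.22 CPM (dnaK), so their log2 fold changes also rest on few counts there. Without HL_KO replicate 2, whose psbD value of 6.09 CPM was the highest of its group, psbD stood at -1.33 (adjusted p = 0.169, edgeR). Its call was also lost without HL_OE replicate 1 or 2, and without HL_OE replicate 3 psbC was called as well.

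Against WT no core gene was called in either labelled strain. In NL_KO the log2 values of all 6 were positive, from 0.68 (SE 0.61) for psaA to 1.43 (SE 0.61) for psbA, with adjusted p values of 0.408 to 0.586 (edgeR) and 1 gene, psbA, at an unadjusted p under 0.05. Their median was 0.93, that of the 30 other cp- genes 0.81 and that of all genes -0.01. Of all genes 0.131% were called. NL_KO replicate 1 lay within the range of NL_WT for all 6 genes, and replicates 2 and 3 lay above it for all 6. In HL_KO 3 of the 6 were positive and 3 negative, from -0.997 (SE 0.67) for psbB to 0.86 (SE 0.65) for psbD, with adjusted p values of 0.414 to 0.993 (edgeR), 0 at an unadjusted p under 0.05 and 3.63% of all genes called. The groups of psbB did not overlap there, nor did those of 16.7% of all tested genes. DESeq2 and limma on TPM also called 0 core genes in both comparisons.

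Against WT, many genes were called in the OE-labelled strain but none of these 6 core genes. At normal light 5 of the 6 values were negative, from -0.75 (SE 0.56) for psaB to -1.21 (SE 0.66) for psbD, and psbA was positive at 0.27 (SE 0.60), with adjusted p values of 0.186 to 0.791 (edgeR). At high light all 6 were negative, from -0.40 (SE 0.60) for psbA to -1.15 (SE 0.58) for psaB, with adjusted p values of 0.138 to 0.636 (edgeR). Over all genes 22.3% were called at normal and 32.1% at high light, and 0 core genes had an unadjusted p under 0.05 in either. In edgeR fits of the compared groups alone 2 core genes did at normal and 1 at high light, and 0 were called. With all groups in the fit, 4 of the 30 other cp- genes were called lower at normal and 11 at high light. Their medians were -1.77 and -2.54, beside -1.01 and -0.95 for the core genes. Whether the core genes differ from the other cp- genes was not tested, and the medians do not show it because many of the other genes had few counts. The other cp- genes called had means of 0.037 (chlN) to 1.45 CPM (tufA) in NL_OE. In HL_OE their means ran from 0 (groEL) to 0.534 CPM (tufA). DESeq2 and limma on TPM also called 0 core genes. Without NL_OE replicate 3, the library with 89.8 CPM, psbA stood at -0.85 in place of 0.27 at normal light.

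Between high and normal light 1 core gene was called, in 1 strain. In the KO-labelled strain psbB fell to 0.596 ± 0.178 CPM from 3.50 ± 1.85 (log2 fold change -2.59 with an SE of 0.65, edgeR adjusted p = 0.0441; SD, n = 3), without overlap of the groups, which held for 14.8% of all tested genes. The other 5 were negative too, from -0.97 (SE 0.62) for psbD to -1.50 (SE 0.60) for psbC, and not called (adjusted p = 0.163 to 0.376, edgeR), with 4 of the 6 genes at an unadjusted p under 0.05. Of all genes 2.85% were called and 1.08% called lower, and of the 30 other cp- genes 0. The call of psbB was lost without HL_KO replicate 2 (adjusted p = 0.134, edgeR), HL_KO replicate 3 (0.0502), NL_KO replicate 2 (0.0693) or NL_KO replicate 3 (0.170). Its log2 fold change was then -2.50, -2.86, -2.60 and -2.11 in that order. In a fit of the 2 groups alone, which called 0 of 9912 genes, the log2 fold change of psbB was -2.60 (adjusted p = 0.648, edgeR).

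In WT 0 of 6 core genes were called between the light levels, where 13.3% of all genes were. The value of psbA was 0.29 (SE 0.60) and those of the other 5 were negative, from -0.32 (SE 0.56) for psaB to -0.88 (SE 0.61) for psbB, with adjusted p values of 0.355 to 0.784 (edgeR). Without HL_WT replicate 1, whose psbA level of 65.8 CPM exceeded those of the other replicates, psbA stood at -0.37. In the OE-labelled strain 0 of 6 were called and 0.333% of all genes. Its 6 values were negative, from -0.38 (SE 0.60) for psbA to -0.79 (SE 0.64) for psbB, each with an adjusted p of 1.00 to 2 decimals (edgeR). DESeq2 and limma on TPM called 0 in both strains, and 0 had an unadjusted p under 0.05 in edgeR.

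The difference of the light responses was tested as an interaction. For the KO-labelled strain against WT all 6 values were negative, from -0.33 (SE 0.89) for psbD to -1.71 (SE 0.89) for psbB, with adjusted p values of 0.314 to 0.869 (edgeR). For the OE-labelled strain they ran from -0.67 (SE 0.85) for psbA to 0.25 (SE 0.87) for psbC, with adjusted p values of 0.742 to 0.969 (edgeR). No core gene was called in either, where 0.605% and 3.70% of all genes were, and DESeq2 and limma on TPM also called 0. In the edgeR fit of all groups 0 had an unadjusted p under 0.05. With the compared groups alone 2 did for the KO-labelled strain and 0 for the OE-labelled one, and 0 were called. The call of psbB between light levels in the KO-labelled strain is thus not shown to differ from the response in WT.

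**Figure D5:**
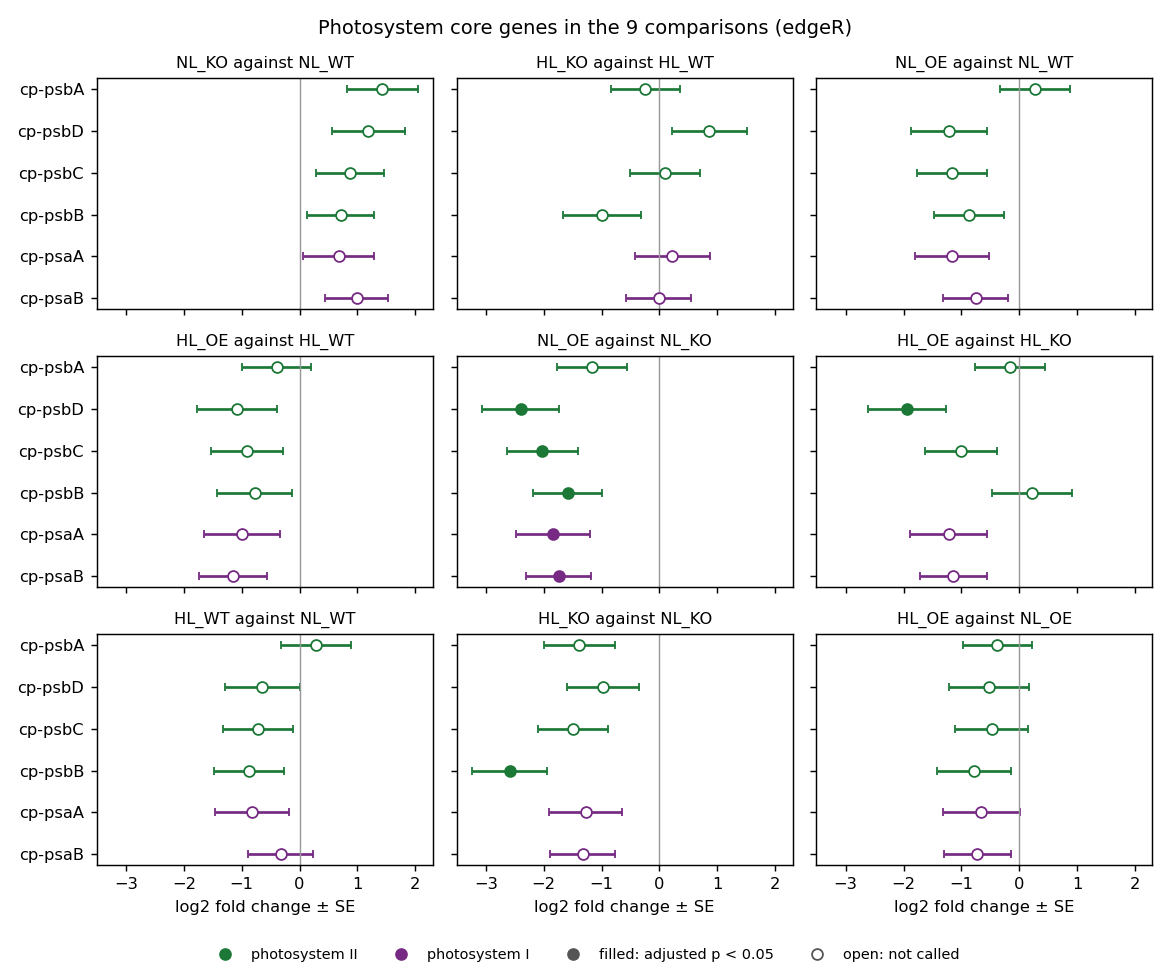
Log2 fold change ± SE of each photosystem core gene in the 9 comparisons between groups (edgeR); filled points passed an adjusted p of 0.05 over 9912 genes. Calls stand in 3 panels: 5 genes in NL_OE against NL_KO, psbD in HL_OE against HL_KO and psbB in HL_KO against NL_KO.

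Likeness was measured as the SD over the 18 libraries of the difference in log2(CPM + 0.5), where a smaller SD means a closer course. Among the core genes psaA and psbC were closest to each other (SD 0.35), and psbC was also the closest partner of psbD (0.36), psaB (0.38) and psbA (0.54). The closest partner of psbB was psaB (0.44). The largest SD was that between psbB and psbD, at 0.68. Of the tested genes outside the group, rbcL, which encodes the large subunit of the CO2-fixing enzyme Rubisco, had the course most like the sum of the 6 (SD 0.43, against a median of 0.93 over all tested genes). It stood at 0.855 to 10.3 CPM. Next came the nuclear gene NO10G01600 (0.53), the plastid ATP synthase gene atpI (0.55), the plastid cytochrome gene petB (0.55) and NO21G01800 (0.56). The sum itself had an SD of 0.81 on that scale, and all plastid genes share the plastid content of a library. In 2 of these genes, atpI and petB, some libraries had 0 counts.

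Other genes of the photosynthetic apparatus gave few counts. The 15 other photosystem II genes took at most 0.783% of the cp- counts of a library, 11 of them had 0 counts in all 18 libraries and 0 passed the filter. Of the 7 other photosystem I genes 0 passed, and they took at most 2.03%. Of the 7 ATP synthase genes 4 passed, and 1 of them, atpI, was called lower in HL_OE than in HL_WT and in NL_OE than in NL_KO, and 2, atpB and atpI, in HL_OE than in HL_KO. Of the 8 genes of cytochrome b6f and electron carriers 2 passed, and petA was called lower in HL_OE than in HL_KO (0.0761 ± 0.0872 against 0.894 ± 0.742 CPM). Rubisco and its activase had 1 of 3 genes tested, rbcL, with 0 calls in the 11 comparisons, and chlorophyll synthesis 2 of 4, with chlN called lower in NL_OE than in NL_WT and in NL_KO.

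The most abundant cp- genes by mean CPM were psbA (45.2), the translation elongation factor gene tufA (7.68), the chaperone gene dnaK (5.02), psbC (4.26) and rbcL (3.85). The genes of plastid gene expression, 9 tested of 48, had 7 called lower and 0 higher in NL_OE against NL_KO. In HL_OE against HL_KO 6 were called lower and 0 higher. The called genes had means of 0.037 (rps7) to 1.45 CPM (tufA) in NL_OE and 0.019 (rpoA) to 0.534 CPM (tufA) in HL_OE. Among them tufA fell to 0.534 ± 0.198 CPM in HL_OE from 14.3 ± 9.07 in HL_KO (log2 fold change -4.89 with an SE of 0.73, edgeR adjusted p = 0.000272; SD, n = 3), where psbA had 34.0 ± 16.6 and 34.4 ± 5.02 CPM.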

How the data were processed

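Polyadenylated RNA of 18 flask cultures was sequenced in paired 150-base reads. Deposited tables give expected counts (the authors' estimated read counts per gene and library, without normalization) and TPM (scaled by the authors for gene length and library total). Tools named in the submitters' processing notes are STAR, Salmon, Trim Galore and Picard; no source used here gives their versions, a build or an annotation. Counts were rounded; at least 96.3% of values in each library were whole within 1e-09, and all 108 values of the 6 core genes were. Counts were fitted with edgeR 4.0.16 in R 4.3.3 after TMM scaling (factors 0.894 to 1.08) and filterByExpr, which removed 581 genes, with the 6 groups of 3 in 1 model without covariates. The SE is the unshrunken coefficient divided by the root of F. CPM printed here use library totals. Gene pairs, annotation and the overlap of psbD with psbC come from a RefSeq gene table with symbols. All 6 symbols matched, each with 1 copy. No coordinates are printed because the builds could not be compared.

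Besides the 6 genes, cp- genes could be named where called, where among the 5 most abundant, or where among the 5 most alike. Many of the called cp- genes are not named. The psbD:psbC, psbB:psbC and psbA:psbD ratios, ycf54 and the other sums were chosen after their values were seen. The members and lists were chosen with earlier results of these data known. Alternatives were DESeq2 1.42.0, RLE scaling, a replicate block, no filter, the compared groups alone, limma 3.58.1 on log2(TPM + 1) and log2(TPM + 0.1), and libraries left out. The edgeR step was tested on simulated data. Same-numbered replicates are not stated to share a batch.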

Additional observations from a re-analysis of the deposited data

How the results depend on the processing

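With edgeR on counts, 0 core genes were called in 8 of the 11 comparisons, and this held under every alternative run, libraries left out included. The other 3 comparisons were less stable. For NL_OE against NL_KO the count of 5 went to 2 with limma on log2(TPM + 0.1), and ran from 0 to 6 over the libraries left out in turn. It went to 4 with the replicate block, with no count filter and with the compared groups alone. There psbB was the gene lost, at adjusted p values of 0.0519, 0.0513 and 0.0765 (edgeR). For HL_OE against HL_KO the count of 1 went to 0 with the replicate block (psbD at an adjusted p of 0.0526, edgeR), with the compared groups alone (0.0542) and without HL_KO replicate 2 and HL_WT replicate 1 together (0.131), and ran from 0 to 2 over the libraries left out. For HL_KO against NL_KO the count of 1 went to 0 under the same 3 settings (psbB at adjusted p values of 0.0592, 0.648 and 0.0794, edgeR), and ran from 0 to 1. The replicate block did not change the count in the other 8 comparisons. Same-numbered libraries mostly did not deviate together: 16 of 45 correlations of their deviations over all pairs of groups were over 0.1, with a median of 0.0303. In no comparison tested here were all 3 pairs over 0.1. They were for NL_WT with HL_OE (0.230, 0.134 and 0.361), which were not compared. The numbers are not taken as pairs.

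Shares computed from TPM in place of counts were lower for the core genes, at 40.4% in NL_WT, 43.8% in NL_KO, 56.4% in NL_OE, 35.3% in HL_WT, 28.7% in HL_KO and 68.4% in HL_OE of all cp- TPM. The share of psbA among the core genes was then 74.8% in NL_WT, 79.5% in NL_KO, 84.8% in NL_OE, 84.4% in HL_WT, 79.5% in HL_KO and 89.6% in HL_OE.

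Of uncalled log2 fold changes, some changed sign. Without HL_KO replicate 2 and HL_WT replicate 1 together, psbA stood at 0.35 and psaB at 0.20 in HL_KO against HL_WT, psbA at 0.26 in HL_OE against HL_WT and at -0.37 in HL_WT against NL_WT, and psaA at 0.67 for the light response of KO against that of WT. With limma on TPM, psbA stood at -0.086 with a pseudocount of 1 and -0.093 with 0.1 in NL_OE against NL_WT. Over single libraries left out, HL_KO against HL_WT ran from -0.50 to 0.39 for psbA, -0.24 to 0.70 for psbC, -0.40 to 0.99 for psaA (1.31 without HL_KO replicate 2 and HL_WT replicate 1 together) and -0.26 to 0.32 for psaB. For psbA the range was -0.85 to 0.66 in NL_OE against NL_WT, -0.83 to 0.26 in HL_OE against HL_WT, -0.59 to 0.11 in HL_OE against HL_KO, -0.37 to 0.54 in HL_WT against NL_WT and -0.81 to 0.74 in HL_OE against NL_OE. It was -0.67 to 0.56 for psbB in HL_OE against HL_KO, -0.70 to 0.24 for psaB in HL_WT against NL_WT and -1.15 to 0.15 for psbD in HL_OE against NL_OE. For the light response of KO against that of WT it was -0.94 to 0.27 for psbD and -1.08 to 0.35 for psaA. For that of OE it was -1.10 to 0.45 for psbA, -0.80 to 0.53 for psbB, -0.67 to 0.87 for psbC, -0.51 to 0.79 for psbD and -0.34 to 0.96 for psaA. Apart from the settings that leave libraries out or use fewer samples, the causes were not tested. The fewest counts were those of psbB, 6 to 80 in a library.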
